A study of Rattus norvegicus with 8 samples.

Results

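The proteasome genes of the rat array were taken by name: every gene spot whose symbol was Psm, a letter from a to g and digits, with all of its probes. This gave 51 probes of 46 genes, among 26276 differently named features. They comprised 14 subunits of the constitutive 20S core, 17 subunits of the 19S cap, 5 genes of the immunoproteasome group (Psmb8, Psmb9, Psmb10, Psme1 and Psme2), 6 assembly factors, 3 other regulators (Psme3, Psme4 and Psmf1) and the thymus subunit Psmb11. Of these, 46 probes of 43 genes were bright enough to be tested, and 43 of the probes were well above background in both channels of all 8 arrays. Psmd5, Psme3 and Psmg2 had no such probe, and a second probe each of Psmb11 and Psmd9 was also too dim. Spots named Psma8 or Psmg3 were not found, and these genes were not analysed here.

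The proteasome is the protease that degrades ubiquitin-tagged proteins in the cytosol and nucleus. Its barrel-shaped core is built from rings of alpha subunits, which gate the entrance, and rings of beta subunits, of which Psmb5, Psmb6 and Psmb7 cut peptide bonds; the cap recognises, deubiquitinates, unfolds and feeds in the substrates. In cells exposed to interferon gamma, Psmb8, Psmb9 and Psmb10 take the places of Psmb5, Psmb6 and Psmb7 in newly built cores, and the PA28 activator made of Psme1 and Psme2 can replace the cap. In skeletal muscle the ubiquitin-proteasome route is known for the breakdown of myofibrillar proteins during wasting.

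All RNA came from castrated adult male Wistar rats aged 120 ± 12 days, which were described in the labels as castrated rat cells. The control groups had the agent listed as control, and the treated groups had received testosterone propionate, an injectable ester of testosterone, as 1 subcutaneous dose of 4 mg/kg in corn oil, 8 h or 24 h earlier. Castration was thus shared by all groups, and the contrast at each time was treated against control; there were no intact animals in the series as analysed here. Each of the 4 arrays of a time carried a treated and a control RNA in different dyes, so each array gave its own log2 ratio (treated over control), and 0 means equal signal. Treated RNA carried Cy3 on replicates 1 and 2 at 8 h and on replicates 3 and 4 at 24 h. The labels call the arrays biological replicates but do not say whether an array held the RNA of 1 animal or of a pool, or whether the controls were given oil; the p-values measure the spread between these arrays. Each time had a slide to itself, and a difference between times cannot be told apart from one between slides.

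The series is titled for muscle atrophy and no muscle is named; 10 of 12 skeletal muscle fibre markers were measured, against 2 of 12 lymphocyte and 1 of 5 prostate and accessory gland markers. The arrays differed in spread: the SD of the log2 ratios of all kept probes was 0.437 on replicate 1 at 8 h, between 0.18 and 0.198 on the other 8 h arrays, and between 0.235 and 0.303 at 24 h. The 8 h class medians and the members that this array moved most are therefore given with and without it.

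The probes below are those of the catalytic subunits that trade places between the standard core and the immunoproteasome, because the comparison of the classes rests on telling these relatives apart. Each is the designed 60-base probe as the array files give it, 5′ to 3′, and each has at least 1 reading frame free of stop codons. The positions, on rat build rn4, were read from the array files; exon and untranslated region annotations were not used here. The Psmb5 probe lay at chr15:32690134-32690193 on the minus strand, Psmb6 at chr10:57371368-57371427 on the plus strand, Psmb8 at chr20:4787980-4788039 on the minus strand and Psmb9 at chr20:4806341-4806400 on the plus strand. The Psmb7 probe was listed over chr3:18413231-18433105 on the minus strand, a span of 19875 bases for a 60-base probe.
Psmb5: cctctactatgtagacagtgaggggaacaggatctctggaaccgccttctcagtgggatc
Psmb8: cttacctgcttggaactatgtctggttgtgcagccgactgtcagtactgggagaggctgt
Psmb6: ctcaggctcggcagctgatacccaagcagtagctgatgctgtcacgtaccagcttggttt
Psmb9: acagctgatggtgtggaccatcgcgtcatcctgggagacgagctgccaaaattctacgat
Psmb7: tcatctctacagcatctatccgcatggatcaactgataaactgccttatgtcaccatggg
The Psmb10 probe lay at chr19:35777711-35777770 on the minus strand and had a stop codon in every frame; it is given by position only. The longest run of bases shared by any pair of these 6 probes was 8, so no pair shared a long identical stretch.

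At 24 h Psmb10, the inducible subunit that takes the place of Psmb7, was the member that rose, and no member fell. Its log2 ratios on replicates 1 to 4 were 0.69, 0.34, 0.47 and 0.32. All 4 arrays lay above 0, with replicate 1 the highest. The estimate was 0.46 (95% interval 0.24 to 0.67; SD 0.17, n = 4), a 1.37-fold higher signal in treated RNA, with adjusted p = 0.0233 (limma, Benjamini-Hochberg over 12068 probes). This was 1 of 46 member probes called, against 6.91% of all probes tested at 24 h (4.15% higher and 2.76% lower), so the share of members called was below that of the array. The call was lost without replicate 1 (0.39, adjusted p = 0.166), replicate 3 (0.42, adjusted p = 0.107) or replicate 4 (0.48, adjusted p = 0.0708) of 24 h, and with the scanner software's processed signals (0.39, adjusted p = 0.198). Without replicate 1 of 8 h, which enters the shared estimate of spread, 4 member probes passed at 24 h (3 higher and 1 lower), with 10.9% of all probes. With arrays centred on their median in place of loess the Psmb10 estimate was 0.80 (adjusted p = 0.0263), in a setting that moved the median of all probes to 0.15.

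At 8 h the Psmb10 ratios were -0.36, 0.10, 0.23 and -0.11, on both sides of 0. The estimate was -0.03 (95% interval -0.25 to 0.18), or 0.06 without replicate 1. No 8 h array reached the lowest of the 24 h arrays. The difference between times was 0.49 (95% interval 0.18 to 0.80; adjusted p = 0.113), so it did not pass the threshold. Without replicate 2 of 8 h it did, together with Psmb2 and Psmb4, where 5.11% of all probes passed.

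Psmb9, the inducible counterpart of Psmb6, stood at 0.50, 0.19, 0.30 and 0.12 on the 24 h arrays. Each array was above 0, and the times overlapped slightly, since the 8 h arrays read 0.14, 0.02, 0.02 and 0.07. The 24 h estimate was 0.28 (95% interval 0.11 to 0.44; adjusted p = 0.0573), just outside the threshold, and it passed without replicate 1 of 8 h (adjusted p = 0.0398). Psmb8, the counterpart of Psmb5, read -0.17, 0.04, -0.35 and -0.20 at 24 h, with 3 of 4 arrays below 0. Its estimate was -0.17 (95% interval -0.38 to 0.04; adjusted p = 0.352), and its 8 h arrays read 0.32, 0.01, -0.16 and -0.16, with an estimate of 0.00, or -0.11 without replicate 1. Of the 3 inducible catalytic subunits, 2 thus had 24 h intervals above 0 and the interval of Psmb8 spanned 0. The Psmb8 probe was dim (mean log2 intensity 6.36). At 24 h it was well above background on 3 of 4 arrays in treated and in control RNA. With processed signals its 24 h estimate was -0.43 (adjusted p = 0.455).

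The PA28 subunits lay above 0 at 24 h without passing. Psme1 read 0.52, 0.10, 0.01 and 0.13, so that replicate 1 stood apart from arrays near 0. Psme2 read 0.66, 0.30, 0.19 and -0.02, again with replicate 1 the highest. The estimates were 0.19 (95% interval 0.01 to 0.37; adjusted p = 0.199) for Psme1 and 0.28 (95% interval 0.08 to 0.49; adjusted p = 0.0986) for Psme2. At 8 h Psme1 lay between -0.15 and 0.08, and Psme2 lay between 0.12 and 0.22, above 0 on every array. Psme2 was spotted 10 times on each array, and the SD of its repeated spots was 0.29 on replicate 1 and 0.24 on replicate 4 of 24 h, and between 0.05 and 0.14 on the other 6 arrays.

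The constitutive catalytic subunits did not pass at either time. Psmb5, the chymotrypsin-like subunit, read 0.55, 0.33, 0.24 and 0.09 at 24 h, above 0 on every array, with an estimate of 0.30 (95% interval 0.04 to 0.56; adjusted p = 0.159). Psmb6, the caspase-like subunit, read 0.32, -0.07, -0.05 and 0.13, around 0, with an estimate of 0.08 (95% interval -0.32 to 0.49). Psmb7, the trypsin-like subunit, read -0.26, -0.13, -0.16 and -0.34. It lay below 0 on every array, with an estimate of -0.22 (95% interval -0.46 to 0.02; adjusted p = 0.27).

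Set side by side on the same array, the partners ran apart in different directions at 24 h. The log2 ratio of Psmb10 exceeded that of Psmb7 by 0.95, 0.47, 0.63 and 0.66 (mean 0.68, SD 0.20, n = 4). Psmb9 minus Psmb6 was 0.18, 0.26, 0.35 and -0.01 (mean 0.20, SD 0.15). Psmb8 minus Psmb5 was -0.72, -0.29, -0.59 and -0.29 (mean -0.47, SD 0.22). The immunoproteasome member was therefore the higher of its pair on all 4 arrays for Psmb10, on 3 of 4 for Psmb9 and on none for Psmb8. At 8 h the same differences spanned -0.98 to 0.36 for the Psmb10 pair, -1.13 to 0.13 for the Psmb9 pair and -0.36 to -0.14 for the Psmb8 pair. The low end of the Psmb10 and Psmb9 pairs was replicate 1. These differences describe unequal change within an array and were not tested, and that of the Psmb8 pair rests on a dim Psmb8 probe.

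**Figure D1:**
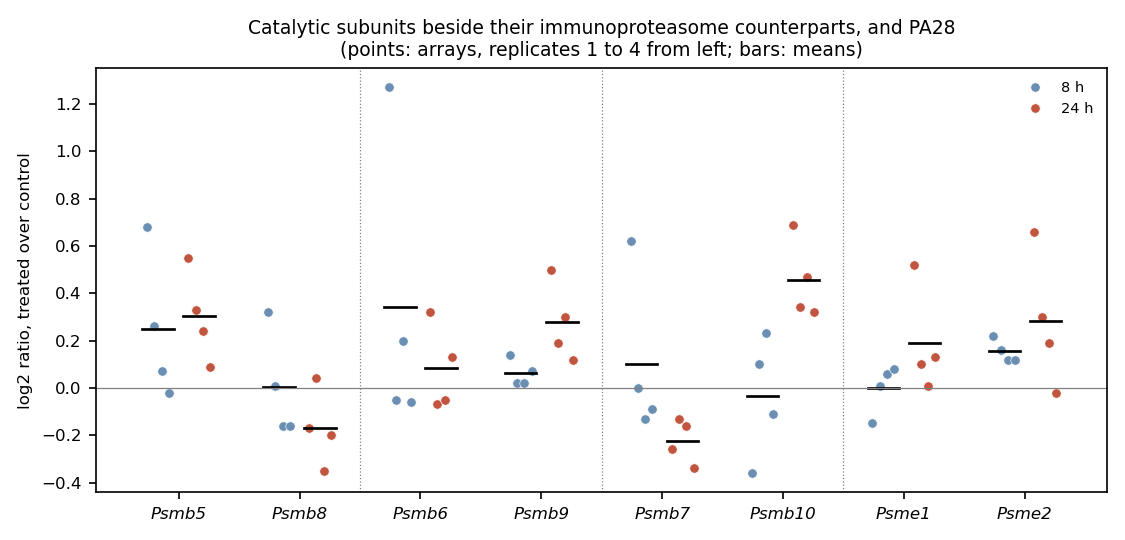
Each point is the log2 ratio, treated over control, on 1 array (vertical axis) for a catalytic subunit and the immunoproteasome subunit that replaces it, with Psme1 and Psme2 at the right; blue is 8 h, red is 24 h, replicates 1 to 4 run from left to right in each cluster and bars are means. The 4 red points of Psmb10 sit between 0.32 and 0.69, while those of Psmb7 sit between -0.34 and -0.13.

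Short promoter stretches are shown for the immunoproteasome genes because these members are known to share control by interferon-responsive factors. RefSeq promoters of assembly GRCr8, from 250 bases before to 50 after the gene start, were held for 41 of the 46 genes. The motif GAAANNGAAA, a core of interferon-stimulated response elements, was searched on both strands. It occurred in 3 of 5 immunoproteasome genes (60.0%), in 2 of 13 core genes (15.4%), in 1 of 14 cap genes (7.14%) and in 3.92% of all 33469 promoters. Of the 41 genes, 7 held it (17.1%), the others being Psma4, Psmb3, Psmd7 and Psmg4. A member gene was counted if any of its promoters matched, whereas each of all promoters was counted singly, so the shares are not in like units. The windows below are 30 bases on the strand of the gene, 5′ to 3′, with the match in capitals.
Psmb10, first match, chr19:50743346-50743375, minus strand: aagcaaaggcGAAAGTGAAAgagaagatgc
Psmb10, second match, chr19:50743290-50743319, minus strand: agtggggggtGAAAGCGAAAgtaggaagcg
Psmb8, match on the opposite strand, chr20:4657016-4657045, minus strand: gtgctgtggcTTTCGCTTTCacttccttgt
Psme2, chr15:33052785-33052814, minus strand: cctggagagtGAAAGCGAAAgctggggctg
Psmb10, which rose at 24 h, held 2 matches, from 73 to 64 and from 17 to 8 bases before its start. The Psme2 match lay from 53 to 44 bases before its start, and that of Psmb8 spanned the start. Psmb8, with a match, stood at -0.17 at 24 h, and Psmb9, with none in this window, at 0.28. The relation of the match to the ratio was not tested. The motif TGACNNNGC is the core of antioxidant response elements that Nfe2l1 and Nfe2l2 bind. It was in 8 of 41 proteasome genes (19.5%), Psmb5 and Psmb6 among them, against 12.1% of all promoters. CCAAT was in 20 of 41 genes (48.8%), against 37.5% of all promoters, and in 9 of 13 core genes (69.2%). A match is a string of letters and not a bound site.

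Genes that act beside the immunoproteasome in antigen processing and the interferon response were read from a fixed list, of which 11 were tested. At 24 h 1 rose and none fell, with a median of 0.02, where 6.91% of all probes were called. The gene that rose was Calr, an endoplasmic reticulum chaperone of the peptide-loading complex. B2m, the light chain of class I molecules, read 0.68, 0.09, 0.20 and 0.46, all above 0, with an estimate of 0.36 (adjusted p = 0.0613). The interferon-response factor Irf1 stood at -0.02 and the peptide transporter subunit Tap2 at 0.02 on the log2 scale. None of the 11 passed at 8 h, where the median was 0.03.

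Markers of several other cell types moved over the same interval as Psmb10. At 24 h 4 of 11 tested macrophage and monocyte markers rose, with a median of 0.43, and none fell, where 4.15% of all probes were called higher. The 4 were C1qa (0.69), Lyz2 (0.65), Cd163 (0.50) and C1qc (0.43). Of the rest, Aif1 (0.51), Tyrobp (0.45) and C1qb (0.37) did not pass. Cd68 (-0.02), Cd74 (-0.01), Csf1r (0.08) and Fcgr2b (0.09) were near 0. Of 6 fibroblast markers 3 rose, with a median of 0.57, and all 3 were collagen genes: Col1a1 (1.54), Col3a1 (1.48) and Col1a2 (1.13). The other 3, Dcn (0), Pdgfra (-0.03) and Lum (-0.25), did not pass. Of 4 endothelial markers 1 rose (Kdr, 0.36), and the 3 erythrocyte markers had a median of 0.51 with no call. All 3 were highest on replicate 3 at 24 h (Hbb-b1 1.61, Hbb 2.09, Hba-a1 1.58). At 8 h they were lowest on replicate 3 (-2.14, -2.25 and -2.18). The summed signal of the macrophage markers was between 6390 and 8280 in treated RNA and between 4890 and 6000 in control RNA. Such a sum of linear signals weighs the brightest probe most, here that of Lyz2 (mean log2 intensity 11.43). At 8 h the macrophage median was -0.31 with no call, and the summed signals overlapped. Of the lymphocyte markers, 10 of 12 had no probe bright enough to test, and the other 2 were at -0.11 and 0.06 at 24 h. The summed signal of the 10 muscle fibre markers at 24 h was between 115000 and 135000 in treated and between 144000 and 169000 in control RNA, while single markers went both ways: Myh1 rose (1.33), Acta1 (-0.44) and Actn3 (-0.55) fell, and the other 7 did not pass. The fibre sum was weighted most by the bright probes of Tnni2 (mean log2 intensity 15.38) and Actn3 (15.25). The part of these cell types in the Psmb10 value was not tested. In RNA of whole samples more cells of a type and more RNA per cell cannot be told apart.

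The 14 constitutive core genes gave no call at either time. At 24 h their estimates had a median of 0.04, from -0.25 for the alpha ring subunit Psma5 to 0.30 for Psmb5, with 8 above 0 and 6 below. The class medians on replicates 1 to 4 were 0.19, -0.11, -0.17 and 0.11. The arrays thus fell on both sides of 0, and the median became -0.05 without replicate 1 and 0.09 without replicate 3. Psma5, a probe with 10 spots per array, read -0.07, -0.44, -0.48 and 0.01, with an estimate of -0.25 (95% interval -0.52 to 0.03; adjusted p = 0.291).

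At 8 h no member was called, against 0.0249% of all probes (3 of 12068), so the comparison gave almost no calls anywhere. At an unadjusted p under 0.05, 3 of 43 member genes lay higher and 1 lower, against 678 higher and 1204 lower of all 10888 kept genes. The core genes had a median of 0.26 and 13 of 14 lay above 0, while the median of all kept probes was -0.01. By array, the core medians were 0.65, -0.04, 0.11 and 0.19, so replicate 1 stood far above the others. For 13 of the 14 core genes the highest 8 h value was that of replicate 1. Without that array the core median was 0.03, the cap median 0.03 and the immunoproteasome median 0.02, and 10 of 14 core genes lay above 0. Without replicate 2 the core median was 0.35, and 4 member probes passed (Psma2, Psmb2, Psmb4 and Psmd11) with 10.7% of all probes. Replicate 1 was also the array with the widest spread over all probes.

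The beta ring read higher than the alpha ring at 8 h, with medians of 0.29 over 7 genes and 0.13 over 7 genes. On replicate 1 the beta ring median was 0.68 and the alpha ring median 0.57. On the other arrays the beta ring medians were -0.05, 0.19 and 0.04 and the alpha ring medians 0.02, 0.05 and 0.23, so neither ring was higher throughout. Without replicate 1 the ring medians over the fitted estimates were 0.09 for beta and 0.01 for alpha. The difference between the rings was not tested.

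Psma2, an alpha ring subunit, was the highest member at 8 h, with 1.12, 0.18, 0.24 and 0.34. All 4 arrays lay above 0, and replicate 1 lay far above the rest. The estimate was 0.47 (95% interval 0.17 to 0.77; adjusted p = 0.27), and it was 0.27 (adjusted p = 0.911) without replicate 1 and 0.64 (adjusted p = 0.016) without replicate 2. Psmb6 read 1.27, -0.05, 0.20 and -0.06 at 8 h, so its estimate of 0.34 (95% interval -0.07 to 0.75) became 0.01 without replicate 1. Psmb5 read 0.68, 0.26, 0.07 and -0.02 and had an estimate of 0.25 (95% interval -0.01 to 0.50). Psmb7 read 0.62, 0.00, -0.13 and -0.09 and had an estimate of 0.10 (95% interval -0.14 to 0.34). In all 3 catalytic subunits replicate 1 was the highest array, and without it Psmb5 stood at 0.09 and Psmb7 at -0.07.

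**Figure D2:**
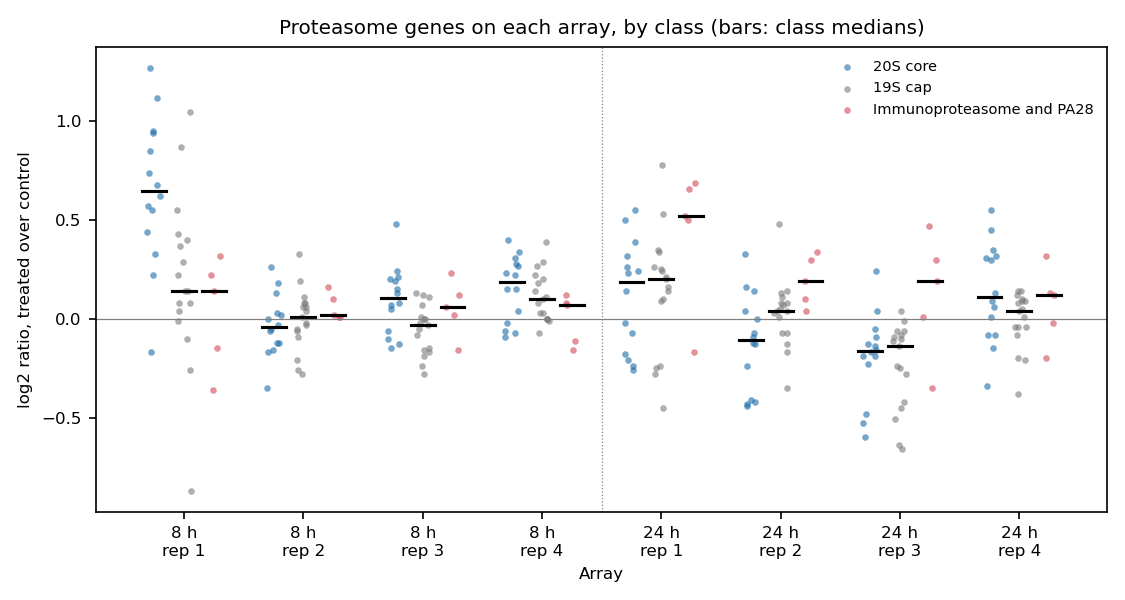
Each point is the log2 ratio of 1 gene (vertical axis) on 1 of the 8 arrays (horizontal axis), for the 14 core genes (blue), the 17 cap genes (grey) and the 5 immunoproteasome genes (red); black bars are class medians. The core median of replicate 1 at 8 h stands at 0.65, and the immunoproteasome median lies above the core and cap medians on each 24 h array, by as little as 0.01.

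The 17 cap genes gave no call at either time. Their median was 0.06 at 8 h, with 13 above 0, and -0.03 at 24 h, with 8 above 0. The 6 ATPases of the cap base, Psmc1 to Psmc6, which unfold substrates, stayed within -0.02 to 0.19 at 8 h and within -0.17 to 0.07 at 24 h. The other 11 cap genes ranged from -0.30 to 0.32 at 8 h and from -0.31 to 0.32 at 24 h, a wider range than the ATPases. On the 8 h arrays the cap medians were 0.14, 0.01, -0.03 and 0.10, and on the 24 h arrays they were 0.20, 0.04, -0.14 and 0.04. Replicate 3 of 24 h was low for most of these genes: for 20 of the 31 core and cap genes it was the lowest array of that time, and without it the cap median was 0.09. The erythrocyte markers were highest on that array (Hbb 2.09), and a relation was not tested.

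The cap subunits at the ends of this range were the following. Psmd8, a lid subunit, read 0.78, 0.48, -0.09 and 0.09 at 24 h, with an estimate of 0.32 (95% interval 0.06 to 0.57; adjusted p = 0.138). The arrays with treated RNA in Cy5, replicates 1 and 2, lay above those with treated RNA in Cy3. Psmb5, Psme2 and the dimmer Psme4 probe, among others, had the same order at 24 h, and Psmd9 had the reverse. Psmd7, a lid subunit that pairs with the deubiquitinase Psmd14, read -0.24, -0.13, -0.66 and -0.21, below 0 throughout. Its estimate was -0.31 (95% interval -0.66 to 0.04; adjusted p = 0.295), and it passed without replicate 1 of 8 h (adjusted p = 0.0445). Psmd12, another lid subunit, read -0.28, -0.17, -0.64 and -0.04, also below 0 throughout, with an estimate of -0.28 (95% interval -0.59 to 0.03; adjusted p = 0.278).

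The same subunits read differently at 8 h. Psmd7 read 1.05, 0.08, 0.12 and 0.03, with an estimate of 0.32 (95% interval -0.03 to 0.67), or 0.05 without replicate 1. Psmd12 read 0.87, 0.08, 0.01 and 0.29, again highest on replicate 1, and its estimate was 0.31, or 0.11 without that array. Psmd11, a lid subunit, was the lowest member at 8 h, with -0.87, -0.26, 0.00 and -0.07 and an estimate of -0.30 (95% interval -0.52 to -0.08; adjusted p = 0.27), or -0.17 without replicate 1. It was the lowest of the core and cap genes on replicate 1, where 26 of 31 lay above 0. Psmd2, a scaffold of the cap base, read -0.26, -0.28, -0.16 and 0.14, with an estimate of -0.14 (95% interval -0.33 to 0.05).

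Between the times no member passed, against 1.26% of all probes. Among core and cap subunits the lowest estimates for 24 h minus 8 h were -0.63 for Psmd7 (95% interval -1.13 to -0.13; adjusted p = 0.205), -0.59 for Psmd12 (95% interval -1.03 to -0.15; adjusted p = 0.171), -0.56 for Psmb4 (95% interval -0.99 to -0.13; adjusted p = 0.187) and -0.52 for Psma5 (95% interval -0.92 to -0.13; adjusted p = 0.181). Without replicate 1 of 8 h they were -0.36, -0.39, -0.35 and -0.36, and that of Psmb10 was 0.39. At an unadjusted p under 0.05, 2 of 43 member genes were higher and 5 lower at 24 h than at 8 h. Of all 10888 kept genes, 950 were higher and 834 lower.

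Within arrays, the classes were ordered differently at the 2 times. The immunoproteasome median minus the core median was -0.51, 0.06, -0.05 and -0.12 at 8 h (mean -0.15, SD 0.25) and 0.33, 0.30, 0.36 and 0.01 at 24 h (mean 0.25, SD 0.16). The immunoproteasome median minus the cap median was 0.00, 0.01, 0.09 and -0.03 at 8 h and 0.32, 0.15, 0.33 and 0.08 at 24 h. Only replicate 2 of 8 h had an immunoproteasome median above the core median, by 0.06, whereas all 4 arrays of 24 h did. The core median minus the cap median was 0.51, -0.05, 0.14 and 0.09 at 8 h and -0.01, -0.15, -0.03 and 0.07 at 24 h, with replicate 1 of 8 h again the extreme. These differences between classes were not tested.

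Over the fitted estimates, the core had a median of 0.26 at 8 h, the cap 0.06 and the immunoproteasome group 0.00. The 24 h medians were 0.04, -0.03 and 0.28 in the same order. The median over all 43 genes was 0.09 at 8 h and 0.05 at 24 h, beside -0.01 and 0.00 over all kept probes. Centring on the array median in place of loess raised all of them, to 0.59, 0.36 and 0.31 at 8 h and 0.32, 0.28 and 0.57 at 24 h, and turned the sign of the cap median at 24 h; the medians of all probes were then 0.12 and 0.15. Without replicate 1 of 24 h the immunoproteasome median was 0.16.

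**Figure D3:**
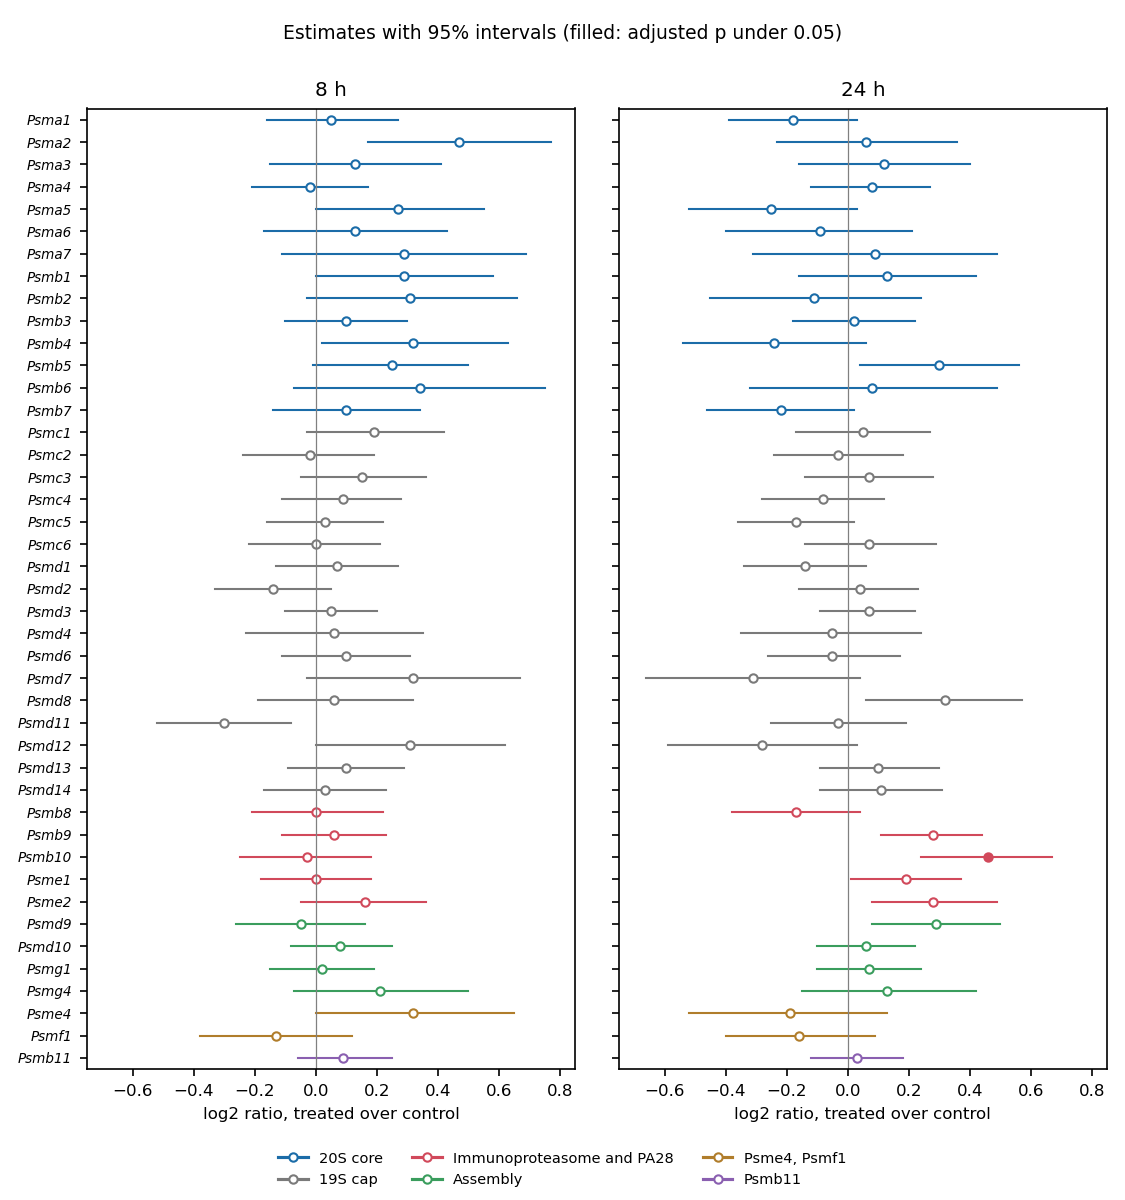
Points are estimated log2 ratios, treated over control (horizontal axes) of the 43 genes at 8 h (left) and 24 h (right), with 95% intervals from the moderated linear model as lines and colours for the classes; a filled point has an adjusted p under 0.05. Psmb10 at 24 h is the filled point, and the 24 h intervals of 36 of 43 genes span 0.

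Of the assembly factors, 4 were tested and none passed. Psmd9, a chaperone of the cap base, read 0.23, 0.18, 0.33 and 0.43 at 24 h, above 0 throughout, with an estimate of 0.29 (95% interval 0.08 to 0.50; adjusted p = 0.0946). At 8 h it read -0.38, -0.11, 0.17 and 0.12. Psmd10, Psmg1 and Psmg4 stood at 0.06, 0.07 and 0.13 at 24 h. The second kept probe of Psmg4 stood at -0.08, the opposite sign. The class median was 0.05 at 8 h and 0.10 at 24 h.

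Among the other regulators, the probes of a gene did not always read alike. Psme4 encodes PA200, an activator that binds the ends of the core. Its brighter probe read 0.12, 0.24, -0.85 and -0.28 at 24 h, with an estimate of -0.19 (95% interval -0.52 to 0.13). Its other probe read 0.41, 0.38, 0.00 and 0.23, with an estimate of 0.26 (95% interval 0.09 to 0.42; adjusted p = 0.0697). The sign of Psme4 at 24 h therefore depended on the probe, and both probes had replicate 3 as the lowest array. At 8 h the estimates were 0.32 and 0.17, the same sign. Psmf1 encodes PI31, known as an inhibitor of the core in vitro. Its probes stood at -0.16 (95% interval -0.40 to 0.09) and -0.09 at 24 h. The brighter read -0.73 on replicate 1 of 8 h and between -0.01 and 0.20 on the other arrays of that time. Psmb11, the thymus subunit, stood at 0.09 at 8 h and 0.03 at 24 h on a dim probe.

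Over all 43 genes, 5 lay above 0 on all 4 arrays of 24 h and 5 lay below 0 on all 4. At 8 h 7 lay above 0 on all 4 arrays and none below. The matching counts over all kept genes are not reported here. The median half-width of the 95% intervals of the 43 genes was 0.21 on the log2 scale at either time. For 7 member probes with 10 spots on each array, the SD between spots had a median of 0.10 and ran from 0.02 to 0.29.

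Genes that work with the proteasome were read from lists of its associated proteins, its transcriptional regulators, and ubiquitin and its activating and conjugating enzymes. Of 15 associated proteins tested, 1 fell at 24 h and none rose, with a median of 0.00, a share near the 6.91% of all probes. It was Zfand5, which encodes a zinc finger protein that binds the 26S particle and stimulates protein degradation, a known gene of muscle atrophy. On the 24 h arrays it read -1.41, -1.53, -1.51 and -0.58, and on the 8 h arrays 0.17, 0.03, -0.33 and 0.19, so the times did not overlap. The 24 h estimate was -1.26 (SD 0.45, n = 4; adjusted p = 0.000879), a 2.39-fold lower signal, and the difference between times was -1.27 (adjusted p = 0.0156). The call at 24 h was lost when arrays were centred on their median (-0.87, adjusted p = 0.0979). The difference between times was also lost in that setting (adjusted p = 0.437), and without replicate 1 (adjusted p = 0.0795) or 2 (adjusted p = 0.0507) of 24 h or replicate 4 of 8 h (adjusted p = 0.0539). Pomp, the maturation factor of the core, stood at 0.00, the cap deubiquitinases Usp14 and Uchl5 at 0.01 and 0.03, and Adrm1, a ubiquitin receptor, at -0.08.

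Of 8 regulators of proteasome gene transcription and of their processing, 3 fell at 24 h and none rose, with a median of -0.13, where 2.76% of all probes were called lower. Nfe2l1, the factor that drives proteasome genes when proteasome activity is short, read -0.38, -0.44, -0.56 and -0.48, a narrow spread, with an estimate of -0.46 (adjusted p = 0.0143). Nfe2l2, its relative of the oxidative stress response, read -0.43, -0.25, -0.32 and -0.23, with an estimate of -0.31 (adjusted p = 0.034). Ddi2, the protease that cleaves Nfe2l1 into its active form, read -0.30, -0.20, -1.17 and -0.61, with an estimate of -0.57 (adjusted p = 0.0489). All 4 arrays of each gene lay below 0. Each call was lost when any 1 array of 24 h was left out, with adjusted p from 0.0569 to 0.0806 for Nfe2l1, 0.0781 to 0.197 for Nfe2l2 and 0.0988 to 0.213 for Ddi2. Leaving out replicate 3 or 4 of 8 h also ended the calls of Nfe2l2 (adjusted p = 0.0606 and 0.0551) and Ddi2 (adjusted p = 0.0774 and 0.0752). Nfe2l2 also missed the threshold with processed signals (adjusted p = 0.0873) and with a replicate block (adjusted p = 0.0696). Ddi2 missed it with no dye coefficient (adjusted p = 0.0887), with no filter on dim probes (adjusted p = 0.0695) and with the mean of the kept probes (adjusted p = 0.0515). With arrays centred on their median the estimates were -0.25, -0.10 and -0.29 and none passed. Ddi2 stood at -0.55 at 8 h as well (adjusted p = 0.27), with all arrays below 0, and at -0.39 without replicate 1.

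Of 10 genes for ubiquitin and its enzymes tested, 1 fell at 24 h and none rose, where 2.76% of all probes were called lower and 4.15% higher. Ubb, a polyubiquitin gene, read -0.23, -0.47, -1.16 and -0.40, below 0 on every array, with an estimate of -0.57 (adjusted p = 0.045). The call was lost without any 1 array of 24 h (adjusted p from 0.0817 to 0.168) or replicate 3 or 4 of 8 h (adjusted p = 0.0642 and 0.0694). It was also lost with processed signals (adjusted p = 0.0753), with no filter on dim probes (adjusted p = 0.0645) and with median centring (-0.14, adjusted p = 0.643). Rps27a, which encodes ubiquitin fused to a ribosomal protein, stood at 0.26 (adjusted p = 0.177). None of the genes of these lists passed at 8 h.

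**Figure D4:**
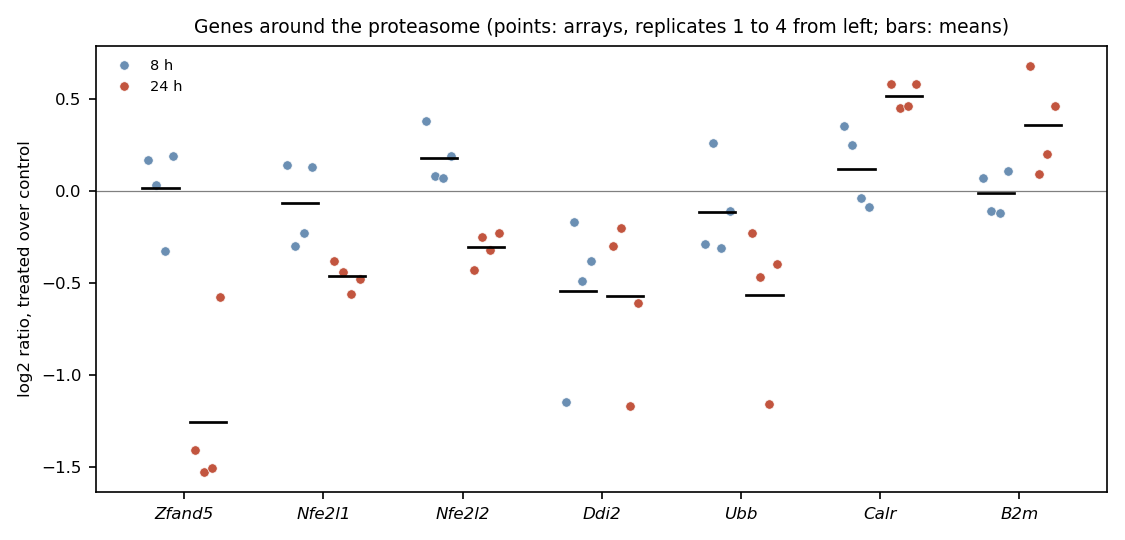
Each point is the log2 ratio, treated over control, on 1 array (vertical axis) for genes around the proteasome; blue is 8 h, red is 24 h, replicates 1 to 4 run from left to right in each cluster and bars are means. Zfand5 at 24 h lies between -1.53 and -0.58, Nfe2l1 between -0.56 and -0.38, and Calr between 0.45 and 0.58.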

How the data were processed

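Per the labels' protocols, total RNA was labelled by Quick Amp. Agilent Feature Extraction (version 9.5.3.1, as the submitters' processing notes list) read the scans. The deposited files hold linear intensities, per the file headers: raw mean signals and local background medians, and processed signals after background and lowess dye correction. LogRatio is the deposited log10 ratio, red over green. The authors' deposited value table holds log2 ratios; on all 42877 gene spots of each array they equalled those of the processed signals in the treated-over-control direction of the labelled dyes, within 1.35e-05 (column medians -0.144 to 0.0896), and so served as the processed-signal alternative.

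From the mean signals, normexp (offset 50) and loess within each array gave log2 ratios (limma 3.58.1, R 4.3.3); spots with outlier flags (731 to 927 per array) were left out and spots of a probe averaged. A probe was kept if 1 RNA group or more (treated or control at either time) had it well above background on 3 or 4 arrays (12074 of 30367), and 12068 could be fitted. lmFit and eBayes fitted a coefficient for each time and a dye coefficient over all 8 arrays; tests were two-sided, at a Benjamini-Hochberg adjusted p of 0.05. Tested on simulated data for the 24 h comparison (12068 probes, 200 of them changed), the fit recovered 93% of log2 changes of 1 and 100% of those of 2, with 12 false calls. The simulated spread of all 8 arrays was taken from the 24 h arrays alone, so the wider replicate 1 of 8 h was not represented. Recovery at the size of the highest member estimates (0.47 at 8 h and 0.46 at 24 h) was not tested. A gene was represented by its brightest kept probe. Accessions of 43 member genes matched RefSeq (GRCr8, used for names and promoters; Python 3.11.15 for sequences). The replicate numbers were not treated as pairs, and a replicate block was an alternative. Same-numbered arrays of the 2 times had deviations that correlated at -0.257, 0.174, -0.165 and -0.071, but their dye orders were opposite. Residuals after the dye coefficient correlated at 0.279, 0.194, 0.292 and 0.333. Between arrays of different number they also correlated at 0.229 and 0.303 (8 h replicate 1 with 24 h replicate 2, and 4 with 3). The shared dye coefficient links these residuals, so neither measure can decide whether the numbers are pairs.

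Named members were those past the threshold, the catalytic subunits and their immunoproteasome counterparts, the activators and Psmf1, and the 3 highest and 3 lowest at each time; Psmd9, Psmd10, Psmg1, Psmg4 and Psmb11 were added to describe small classes, and other genes of the fixed lists than those that passed were named after their values were seen. Members, classes and lists were chosen with earlier results of these data known. Alternatives were processed signals, median centring, no dye coefficient, each time alone, stricter and no filters on dim probes, array weights, other probe rules, a replicate block and leaving out each array. Values of some genes of the fixed lists are not reported here.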

Additional observations from a re-analysis of the deposited data

Results flagged for a closer look

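Among the 40 sets of 4 arrays examined (the named members and the core, cap and immunoproteasome medians, at each time), 2 held an array far from the other 3, where chance gives about 1 in 20. Both were replicate 1 of 8 h: it read 1.12 for Psma2, with the others between 0.18 and 0.34, and 1.05 for Psmd7, with the others between 0.03 and 0.12.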

How the results depend on the processing

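At 24 h the count of member probes past the threshold was 1 (Psmb10), where 6.91% of all probes passed. It was 0 with processed signals (4.76% of all probes) and 2 with median centring (Psmd9 and Psmb10, 3.62%). Each time fitted alone gave 8 (14.1%) and array weights gave 7 (13.5%). The replicate block gave 2 (7.64%) and also called Psmd8 (adjusted p = 0.0439). Leaving out 1 array gave 0 to 4, with 1.72% to 10.9% of all probes. Besides Psmd8, the replicate block changed 1 call of a list gene, Nfe2l2 (adjusted p = 0.0696), and no other call among the named genes. The 8 h and 24 h arrays share only their numbers. In residuals after the dye coefficient, each 8 h array correlated best with the 24 h array of its own number. Replicates 2 and 3 of 24 h correlated best with an 8 h array of another number. With 1 array left out, the count was 0 to 4 at 8 h and 0 to 3 between times; the 4 and the 3 came without replicate 2 of 8 h, where 10.7% and 5.11% of all probes passed. Median centring moved the class medians to 0.59 (core), 0.36 (cap) and 0.31 (immunoproteasome) at 8 h and 0.32, 0.28 and 0.57 at 24 h. Leaving out 1 array put the 8 h cap median between 0.03 and 0.15 and the 8 h immunoproteasome median between 0.00 and 0.06. The cause of these shifts was not tested. Over 843 comparisons of a named gene under an alternative, 750 kept call and sign, 36 changed sign without a call, 42 lost and 15 gained a call, and 0 reversed. Dim probes limit Psmb8, Psmb11, Psmd5, Psme3 and Psmg2, and 4 arrays a time limit the precision throughout.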
